A study of Mus musculus with 4 samples.

Results

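The 10 genes described here carry, receive or restrain the TGF-beta signal: the ligand Tgfb1, Nrros, the receptors Tgfbr1 and Tgfbr2, the signal transducers Smad2, Smad3 and Smad4, the inhibitor Smad7, and the corepressors Ski and Skil. They were chosen by gene symbol from the 32285 genes of the count matrices, and all 10 had enough counts to be tested in microglia. TGF-beta is secreted in a latent form, held inside a shell of its own propeptide. On microglia, Nrros tethers and presents this latent complex, from which integrins release the active ligand. Tgfbr2 binds the ligand and phosphorylates Tgfbr1, which phosphorylates Smad2 and Smad3. These join Smad4 and act on target genes, among them Smad7 and Skil, whose products feed back on the receptors and the Smads. Microglia need this signal to keep their adult identity, and genes such as P2ry12, Tmem119 and Siglech are lowered when it is lost.

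Brain cells from 2 PRMT1FL mice and 2 PRMT1Cx3cr1-KO mice were compared by single-cell RNA sequencing, with 1 library for each mouse. Both genotypes carry floxed alleles of Prmt1, an arginine methyltransferase, and are on the C57BL/6 background. The sample labels call the PRMT1FL mice wild type. In PRMT1Cx3cr1-KO mice these alleles are deleted by CreERT, a recombinase activated by tamoxifen, which the driver line expresses from the Cx3cr1 gene, and thus in microglia and other Cx3cr1-expressing myeloid cells. Mice of both genotypes received tamoxifen, which was injected on 5 days at 5 to 6 wk of age. Cuprizone (CPZ), which kills oligodendrocytes and strips the brain of myelin, was fed at 0.2% for 5 wk before the cells were taken. By the published protocol the diet began 2 wk after tamoxifen, while the labels give 5 to 6 wk as the age at the diet. The CreERT allele and the loss of PRMT1 cannot be told apart in this design. The comparison asks whether microglia that lack PRMT1 express the TGF-beta pathway at a different level during demyelination.

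Cells had been sorted for CD45 and CD11b, a gate that also admits other myeloid cells. The libraries held between 76943248 and 99559644 UMIs (unique molecular identifiers, which count each captured RNA once). Of 40869 cells within the limits on genes and mitochondrial UMIs, 38157 fell in microglial clusters, between 7534 and 10742 in a library, and all 15 microglia markers were detected there. Between 31 and 46 cell barcodes were shared by any 2 libraries, at most 0.555% of the smaller one. Prmt1 was at 93.4 and 86.2 CPM (UMIs of the gene scaled to a common library total) in microglia of PRMT1FL libraries. With PRMT1 deleted, 70.0 and 67.9 CPM were measured (log2 fold change -0.38, SE 0.068, adjusted p = 0.0809). These Prmt1 levels include the trimmed-mean scaling described below. The tags come from the 3' end of the transcript and the deleted exons are not given in the sources used here, so it is not known whether these tags lie outside the deleted part, where they would check nothing. Several marker lists moved with genotype inside the microglial sums. All 5 erythroid genes were lower in both PRMT1Cx3cr1-KO libraries (summed 243 and 94.6 CPM against 0.0616 and 0.0215). All 5 MHC class II genes were also lower (1031 and 1319 against 401 and 140 CPM), and 6 of 8 neutrophil genes were (5.99 and 13.2 against 0.887 and 2.99 CPM). All 8 proliferation genes were higher in both (175 and 173 against 243 and 355 CPM), as were 5 of 7 border-associated macrophage genes (19.5 and 19.3 against 37.7 and 99.6 CPM). None of the markers in these 5 lists was at 0 in all libraries, and the part of these cells in the results below was not tested.

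Levels are given as TMM-scaled CPM, that is CPM after the trimmed-mean scaling of edgeR, computed on UMIs summed over the microglia of a library. Plain CPM, without that scaling, were used for sums over marker or immediate-early genes and for P2ry12 and Gdf15 by state. Levels in cells outside microglia are plain CPM too. Fold changes are PRMT1Cx3cr1-KO over PRMT1FL, with 2 libraries for each genotype. A gene was called when the quasi-likelihood test of edgeR gave it a p under 0.05 after Benjamini-Hochberg adjustment over every gene tested. This test called 59 of 13843 genes, or 0.426%, with 45 higher (0.325%) and 14 lower (0.101%). None of the 10 TGF-beta genes was among them. At an unadjusted p under 0.05 there were 2 of them, Tgfb1 and Nrros, where 19.9% of all genes passed. DESeq2 called 1 of them, Nrros, in a fit that called 719 genes. In 7 of the 10, both PRMT1Cx3cr1-KO libraries lay below both PRMT1FL libraries, as did 27.6% of all genes, and in 2 both lay above, as did 26% of all genes. The median log2 fold change over the 10 genes was -0.06, and that over all genes was -0.01.

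The ligand and its tether were the members with the smallest p-values. Tgfb1 (ENSMUSG00000002603, chr7:25687002-25705077 of GRCm38, + strand) was at 400.2 and 394.4 CPM in PRMT1FL and at 357.4 and 281.8 CPM in PRMT1Cx3cr1-KO libraries. Both PRMT1FL libraries were close together and the PRMT1Cx3cr1-KO libraries lay below them, at unequal distances. The log2 fold change was -0.31 (SE 0.117, adjusted p = 0.217). Nrros (ENSMUSG00000052384, chr16:32142785-32165594, - strand), which holds latent TGF-beta on the surface of microglia, was at 99.6 and 98.3 CPM in PRMT1FL and 78.4 and 83.6 CPM in PRMT1Cx3cr1-KO libraries. Here the gap between the genotypes was several times the gap within either. Its log2 fold change was -0.29 (SE 0.064, adjusted p = 0.0991). Whether either passed turned on single libraries. Without PRMT1Cx3cr1-KO library 1, Tgfb1 passed at -0.49 (adjusted p = 5.48e-04) and Nrros at -0.23 (adjusted p = 0.0307), in a fit that called 2729 genes. Without PRMT1Cx3cr1-KO library 2, Nrros passed at -0.33 (adjusted p = 0.0111) and Tgfb1 did not (-0.15), with 975 genes called. Left without either PRMT1FL library, 4 genes were called and no member was among them.

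The sequences upstream of Tgfb1 and Nrros are shown because these members had the smallest p-values in microglia. Each is the 250 bases before the start site, from RefSeq on GRCm38.p6, written 5′ to 3′ on the strand of the gene. Tgfb1 covers chr7:25686752-25687001 on the + strand and Nrros covers chr16:32165595-32165844 on the - strand. Capitals mark CAGAC, the Smad box, searched on both strands together with the palindromic Smad element GTCTAGAC, the AP-1 site TGANTCA and the PU.1 site GAGGAAGT.
Tgfb1: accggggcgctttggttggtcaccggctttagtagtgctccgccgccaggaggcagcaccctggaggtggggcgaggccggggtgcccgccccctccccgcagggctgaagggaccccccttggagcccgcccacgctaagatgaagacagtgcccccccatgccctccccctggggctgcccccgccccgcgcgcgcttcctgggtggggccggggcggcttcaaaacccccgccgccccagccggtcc
Nrros: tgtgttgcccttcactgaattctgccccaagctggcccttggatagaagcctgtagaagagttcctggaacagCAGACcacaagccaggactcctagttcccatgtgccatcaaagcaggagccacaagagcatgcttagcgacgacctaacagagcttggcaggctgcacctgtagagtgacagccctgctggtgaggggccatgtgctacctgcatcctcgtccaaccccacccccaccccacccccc
Only the Smad box was found in either window. It stood once upstream of Nrros, 177 bases before the start site, and had no match upstream of Tgfb1. Upstream windows were at hand for 6 of the 10 members, and a Smad box also stood 160 bases before the start of Tgfbr2 and in 1 of 2 windows of Tgfbr1. Of 32851 such windows in the genome, 42.2% held a Smad box, 0.167% the palindromic element, 6.75% the AP-1 site and 2.44% the PU.1 site. These letter matches are a description and do not show binding.

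The receptors differed little between genotypes. Tgfbr1 (ENSMUSG00000007613, chr4:47353222-47414931, + strand), the kinase that phosphorylates Smad2 and Smad3, was at 315 and 321 CPM in PRMT1FL and 297 and 270.1 CPM in PRMT1Cx3cr1-KO libraries. The groups did not overlap, and the log2 fold change of -0.16 (SE 0.074) did not pass (adjusted p = 0.284). Without PRMT1Cx3cr1-KO library 1 it was -0.23 (adjusted p = 0.0476). Tgfbr2 (ENSMUSG00000032440, chr9:116084293-116175360, - strand), which binds the ligand first, was at 190.0 and 188 CPM against 184 and 184 CPM. Its 4 values spanned less than those of any other member relative to their level, with a log2 fold change of -0.04 (SE 0.0599, adjusted p = 0.752).

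Among the Smads, the transducers were at low and nearly equal levels and the inhibitor was more variable. Smad2 (ENSMUSG00000024563, chr18:76241580-76310963, + strand) was at 26.1 and 25.2 CPM in PRMT1FL and 25.0 and 24.5 CPM in PRMT1Cx3cr1-KO libraries, a log2 fold change of -0.05 (SE 0.0599, adjusted p = 0.692). Smad4 (ENSMUSG00000024515, chr18:73639009-73703780, - strand), the partner shared with the BMP pathway, was at 26.5 in both PRMT1FL libraries and at 26.5 and 24.3 CPM in PRMT1Cx3cr1-KO libraries (-0.06, SE 0.0679, adjusted p = 0.639). Smad3 (ENSMUSG00000032402, chr9:63646767-63757994, - strand) was one of the few members that lay higher in PRMT1Cx3cr1-KO libraries, at 14.8 and 15.8 against 17.1 and 16.2 CPM (0.12, SE 0.0743, adjusted p = 0.412). It rested on the fewest UMIs, between 1116 and 1571 in a library. Smad7 (ENSMUSG00000025880, chr18:75367529-75395935, + strand), which blocks Tgfbr1 and recruits ubiquitin ligases to it, was at 181 and 214 CPM in PRMT1FL and 176 and 156 CPM in PRMT1Cx3cr1-KO libraries. The PRMT1FL libraries differed from each other by more than the nearest libraries of different genotype did. Its log2 fold change was -0.25 (SE 0.104, adjusted p = 0.257), and -0.33 (adjusted p = 0.0242) without PRMT1Cx3cr1-KO library 1.

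The corepressors, which bind Smad complexes and hold target genes down, were not called either. Ski (ENSMUSG00000029050, chr4:155154075-155222592, - strand) lay slightly higher in PRMT1Cx3cr1-KO libraries, at 123 and 125 against 138 and 129 CPM (0.10, SE 0.0641, adjusted p = 0.416). Skil (ENSMUSG00000027660, chr3:31095058-31122577, + strand), which encodes SnoN, was at 184 and 180 CPM in PRMT1FL and at 217 and 167 CPM in PRMT1Cx3cr1-KO libraries. The PRMT1Cx3cr1-KO libraries lay on either side of the PRMT1FL libraries, and the log2 fold change was 0.08 (SE 0.124, adjusted p = 0.777). Without PRMT1Cx3cr1-KO library 1 its sign turned, to -0.12 (adjusted p = 0.287). The summed level of the immediate-early genes Fos, Jun, Junb, Egr1 and Ier2, which rise within minutes of a stimulus such as tissue dissociation, had the same order over libraries, with 5234 and 4873 CPM against 6216 and 4268 CPM. The part of these genes in the Skil values was not tested.

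**Figure D1:**
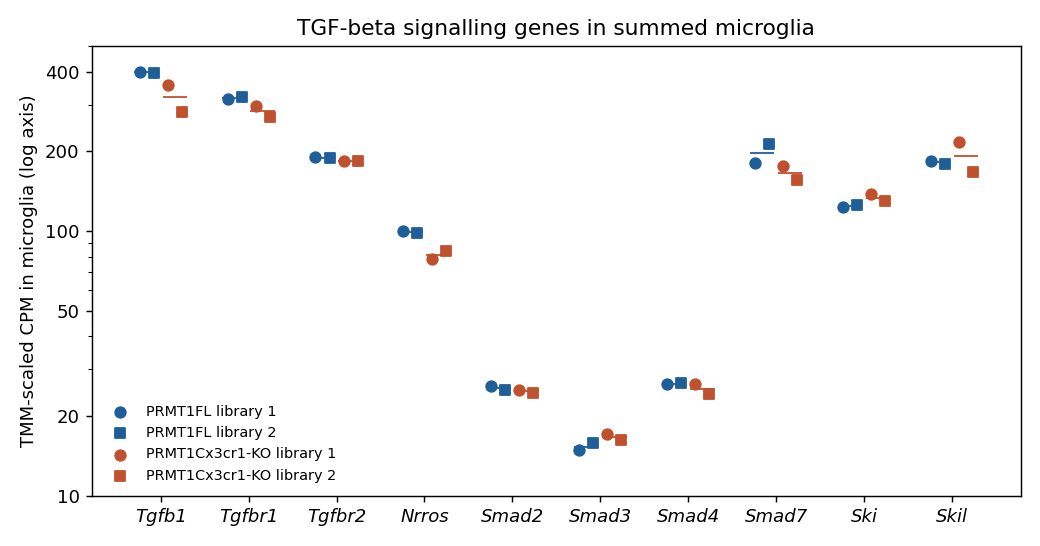
TMM-scaled CPM (log axis) of the 10 genes in the summed microglia of each library, PRMT1FL in blue and PRMT1Cx3cr1-KO in orange, with circles for library 1, squares for library 2 and short lines for the genotype means. Tgfb1 and Nrros sit lower in both PRMT1Cx3cr1-KO libraries, Tgfbr2 and Smad2 are nearly level, and the PRMT1Cx3cr1-KO libraries straddle PRMT1FL for Skil.

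To see where in the microglial population the pathway was expressed, cells were clustered without the 10 genes and the other pathway genes listed below. Also left out were 1197 genes at least 2-fold apart between genotypes in sums over all cells, at an unadjusted p under 0.05 by edgeR. The 7 microglial clusters with at least 50 cells in every library are called states and are named by fixed markers where these led the cluster, and otherwise by leading genes. The chemokine microglia-like state was led by Cxcl2, Tnf and Il1b, the interferon-responsive state by Rsad2 and Ifit3, and the proliferating-like state by Mki67 and Top2a. Gpnmb-Spp1 cells were led by Gpnmb, Spp1 and Fabp5, and Hspa1a-Klf2 cells by heat shock and Klf genes. The Gdf15-P2ry12 state had 1805 to 2089 CPM of the homeostatic gene P2ry12, against 255 to 586 CPM in the other 6 states. Its other name gene, Gdf15, was at 14.99 and 21.2 CPM in PRMT1FL and at 236 and 238 CPM in PRMT1Cx3cr1-KO libraries. In PRMT1FL libraries Gdf15 did not set this state apart. It was at 18.9 and 37.1 CPM there in chemokine microglia-like and at 14.4 and 22.6 CPM in Hspa1a-Klf2 cells. In PRMT1Cx3cr1-KO libraries these states had 67.1 and 109.9 CPM and 39.8 and 59.3 CPM. The haemoglobin-led state was led by 4 haemoglobin genes and then by cell cycle genes such as Pbk, Ube2c and Cdk1, with 4 of 8 proliferation markers over 2-fold. Of its 7534 cells, 1640 and 2270 came from PRMT1Cx3cr1-KO libraries, whose microglia had next to no erythroid UMIs. It also had the lowest immediate-early level (234 to 295 CPM, against at least 2302 CPM in every library of the other 6 states). Its ribosomal share was 24.7 to 28.7% of UMIs, and that of the Gdf15-P2ry12 state was 13.1 to 13.7%. Values by state are means ± SD over the 4 libraries, scaled within each state, and are given as a description.

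Every one of the 10 genes had its lowest mean level in the haemoglobin-led state, and 8 of them had their highest in the Gdf15-P2ry12 state. How many of all genes follow the same order was not counted, so this is not read as particular to the members. Tgfbr1 showed a clear order, with 696 ± 49.3 CPM in Gdf15-P2ry12 cells, 439 ± 16.7 in Hspa1a-Klf2 cells and 304 ± 30.6 in chemokine microglia-like cells. The libraries of neighbours in this top order did not overlap. The Gpnmb-Spp1 (252 ± 20.6), interferon-responsive (252 ± 22.9) and proliferating-like (237 ± 6.88 CPM) states overlapped one another, and haemoglobin-led cells followed at 135 ± 10.3 CPM. Tgfb1 varied least, from 443 ± 92.6 CPM in chemokine microglia-like to 264 ± 35.1 CPM in haemoglobin-led cells, a 1.68-fold span in which every neighbouring pair of states overlapped. Tgfbr2 spanned 1.80-fold, from 209 ± 16.4 in Gdf15-P2ry12 to 116 ± 7.74 CPM in haemoglobin-led cells. Nrros went from 134 ± 14.5 CPM in Gdf15-P2ry12 cells to 44.2 ± 5.96 CPM in haemoglobin-led cells, with the other 5 states between 82.3 and 106 CPM.

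The feedback genes spanned the widest range. Smad7 was at 327 ± 20.98 CPM in Hspa1a-Klf2, 285 ± 80.1 in Gdf15-P2ry12 and 204 ± 24.3 in chemokine microglia-like cells, and at 19.1 ± 1.37 CPM in haemoglobin-led cells, a 17.1-fold span. Skil spanned 8.3-fold, from 342 ± 60.7 CPM in Gdf15-P2ry12 to 41.2 ± 1.65 CPM in haemoglobin-led cells, the states with the highest and the lowest immediate-early level by the mean over libraries. Ski, by contrast, spanned 2.53-fold, from 183 ± 10.4 to 72.5 ± 5.59 CPM. Of the transducers, Smad2 went from 40.4 ± 2.93 to 17.1 ± 1.02 CPM, Smad3 from 25.5 ± 6.11 to 8.32 ± 1.28 CPM and Smad4 from 47.7 ± 4.28 to 11.1 ± 1.38 CPM, each between the same 2 states.

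**Figure D2:**
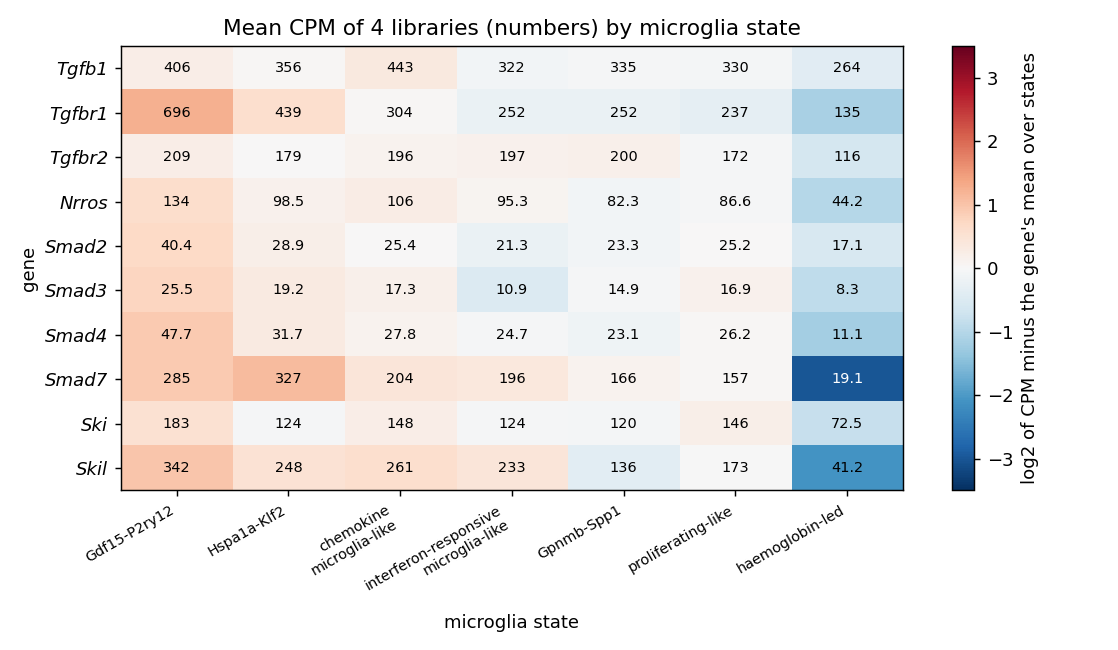
Heat map of the 10 genes (rows) in 7 microglia states (columns), with the mean TMM-scaled CPM of 4 libraries printed in each cell and coloured by log2 of that mean relative to the gene's own average over states. The Gdf15-P2ry12 column is the highest for 8 genes and the haemoglobin-led column the lowest for all 10, down to 19.1 CPM for Smad7. The same count over all genes was not made.

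Over the 28 sums (7 states in 4 libraries), the genes with the most similar profile were sought among 7330 genes by Pearson correlation of log2(CPM + 1). These sums share their libraries and differ in depth, so the coefficients are a description. Skil was closest to the immediate-early genes Fos (r = 0.988), Jun (0.987) and Junb (0.986). Tgfbr1 was closest to P2ry6 (0.988), a microglial nucleotide receptor that triggers phagocytosis, and to Slco2b1 (0.985) and Abca9 (0.981). Smad7 was closest to Mbtd1 (0.990), Clk1 (0.989) and Chd7 (0.988), and Smad4 to Tab2 (0.988), an adaptor of the TAK1 branch of the pathway, Pik3c2a (0.980) and Nrip1 (0.979). Tgfb1 had no such close companion: its nearest were Zfp703 (0.882), Nfkb2 (0.863) and Aebp2 (0.845). The nearest for Nrros were Mlxip (0.952), Ppp1r12a (0.951) and Atxn2 (0.946), for Tgfbr2 Tet2 (0.938), Lpp (0.937) and Wdfy1 (0.934), and for Smad3 Smarca2 (0.928), Sh3pxd2a (0.918) and Cbfa2t3 (0.910). Smad2 was nearest to Mtdh (0.969), Cln8 (0.965) and Actr8 (0.955), and Ski to Map4 (0.959), Brpf1 (0.957) and Tulp4 (0.956).

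Outside these states some libraries held few cells, and the levels below are plain CPM of cells pooled from the 4 mice. Nrros was at 199.7 CPM in 217 border-associated macrophage-like cells, with 104 to 279 CPM in single libraries, against 89.7 CPM in all microglia, and at 12.3 CPM in 54 oligodendrocyte-like cells. Smad7 was at 36.0 CPM in the 249 cells of an MHC class II and Ccr2 cluster and at 71.6 CPM in border-associated macrophage-like cells (40.8 to 111 CPM in single libraries), against 179.9 CPM in microglia. Tgfbr1 was at 59.8 CPM in 96 neutrophil-like, 85.9 CPM in oligodendrocyte-like and 299.5 CPM in microglial cells. Ms4a7 phagocyte-like cells, which were 9 and 4 cells in PRMT1FL and 60 and 363 cells in PRMT1Cx3cr1-KO libraries, had 185 CPM of Tgfb1 and 309.6 CPM of Tgfbr1. Leaving these cells out of the microglial sums left the log2 fold change of Tgfb1 at -0.31 and that of Nrros at -0.29.

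Tgfb1 transcripts were found in 79.6 and 83.8% of PRMT1FL microglia and in 79.1 and 77.7% of PRMT1Cx3cr1-KO microglia. Because the share with a UMI grows with depth, every cell was also thinned to 1000 UMIs, which left out 678 shallower cells. At that depth Tgfb1 was found in 29.7 and 29.8% of PRMT1FL and 28.1 and 24.4% of PRMT1Cx3cr1-KO microglia, and in 1.85% of oligodendrocyte-like cells (14.8% before thinning), whose median depth was 6213.5 UMIs before thinning against 6854 in microglia. For Nrros the shares were 45.3 and 49.4% against 41.1 and 46.9% before thinning and 9.78 and 9.35% against 7.85 and 8.86% after it. In oligodendrocyte-like cells the share for Nrros was 7.41% before thinning and 0 of 54 cells after it, which allows up to 5.56% of cells with a UMI at the thinned depth only. Smad3 was found in 10.6 to 13.4% of the microglia of a library before thinning and in 1.32 to 1.66% after it, and no order of the genotypes was read from so low a share.

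Within states, the genotypes were compared by the same edgeR test in 1 fit per state. Of 70 gene and state pairs, 2 were called, Smad7 in the Gdf15-P2ry12 state and Nrros in the chemokine microglia-like state, both lower in PRMT1Cx3cr1-KO. DESeq2 called 4 pairs, and the share of all genes it called within states was not counted. By edgeR, the share of all genes called was 19.4% in the Gdf15-P2ry12 state and 2.48% in the chemokine microglia-like state. It was 3.37% in haemoglobin-led, 1.04% in Gpnmb-Spp1, 0.813% in proliferating-like, 0.712% in Hspa1a-Klf2 and 0.638% in interferon-responsive cells.

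Smad7 in Gdf15-P2ry12 cells was at 335 and 368 CPM in PRMT1FL and at 241 and 196 CPM in PRMT1Cx3cr1-KO libraries. The gap between the groups exceeded the gap within each. The log2 fold change was -0.69 (SE 0.123, adjusted p = 0.00309), and it remained called without any 1 library, with the highest adjusted p at 0.0469 without PRMT1FL library 2. In the other 6 states the fold change of Smad7 lay between -0.22 and 0.03 and none was called. The difference between this state and the mean of the other 6 was tested on all library and state sums with limma's voom, the library being a random block. That test called 2.11% of 85967 gene and state pairs. Its share in the Gdf15-P2ry12 state alone, where edgeR called 19.4% of all genes, was not counted. For Smad7 the fold change in Gdf15-P2ry12 cells was 0.60 log2 units below that in the other states (SE 0.0997, adjusted p = 6.74e-04). It was no longer called without PRMT1FL library 1 (-0.56, adjusted p = 0.0718) or PRMT1Cx3cr1-KO library 2 (-0.43, adjusted p = 0.131).

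Smad3 in Gdf15-P2ry12 cells was at 28.9 and 31.2 CPM in PRMT1FL and at 24.7 and 17.3 CPM in PRMT1Cx3cr1-KO libraries, on 138 to 158 UMIs each. The log2 fold change of -0.54 (SE 0.174) missed the threshold (adjusted p = 0.0502), and it passed without PRMT1Cx3cr1-KO library 1 (-0.79, adjusted p = 6.12e-05). In 5 of the other 6 states Smad3 had a positive fold change, for example 0.43 in proliferating-like cells (13.7 and 15.2 against 19.3 and 19.5 CPM, adjusted p = 0.299). The difference between the Gdf15-P2ry12 state and the others was -0.78 (SE 0.151, adjusted p = 0.00356). It rested on all but one library, since the adjusted p was 0.25 without PRMT1FL library 1, 0.126 without PRMT1FL library 2 and 0.267 without PRMT1Cx3cr1-KO library 2. Tgfbr2 and Skil came next in this state, at 0.23 above (adjusted p = 0.0558) and 0.39 below the other states (difference -0.39, adjusted p = 0.0616), and neither was called. With 1 library left out at a time, the difference in this state ranged from -0.76 to -0.43 for Smad7 and from -0.96 to -0.51 for Smad3.

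**Figure D3:**
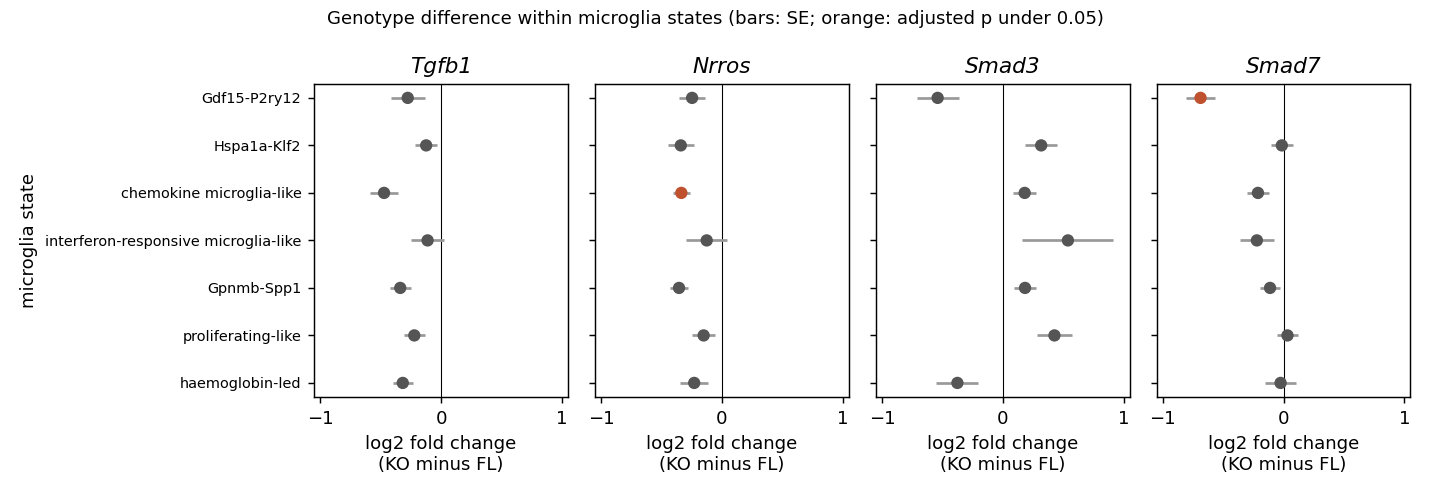
Log2 fold change (PRMT1Cx3cr1-KO minus PRMT1FL) with its SE for Tgfb1, Nrros, Smad3 and Smad7 in 7 microglia states, orange where the adjusted p is under 0.05. Tgfb1 and Nrros are left of 0 in every state, Smad3 is left of 0 in 2 states and right in 5, and Smad7 stands apart in Gdf15-P2ry12 cells at -0.69.

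The makeup of the Gdf15-P2ry12 cluster differed between genotypes. Gdf15 itself was at 14.99 and 21.2 CPM there in PRMT1FL and at 236 and 238 CPM in PRMT1Cx3cr1-KO libraries. Divided further, a part led by Hspa1b and Siglech held 721 and 582 PRMT1FL cells but 148 and 64 PRMT1Cx3cr1-KO cells. A part led by Mmp12 and Gpnmb (14 and 15 against 192 and 499 cells) and one led by Fosb and Treml4 (22 and 6 against 454 and 539 cells) held almost only PRMT1Cx3cr1-KO cells. The other parts, led by Il1b and Tnf and by non-coding transcripts such as Snhg20, had at least 208 cells in every library. Smad7 was tested in the 3 parts with 50 or more cells in every library, an analysis added after the cluster had been seen. In the Hspa1b and Siglech part it was level, at 440 and 468 against 452 and 428 CPM (log2 fold change -0.04, SE 0.131, adjusted p = 0.993), where 0.0905% of all genes were called. In the Il1b and Tnf part it was lower in PRMT1Cx3cr1-KO, at 286 and 369 against 225 and 218 CPM (-0.55, SE 0.127, adjusted p = 0.0152), where 6.05% of all genes were called. In the Snhg20 part it was lower too, at 178 and 181 against 109 and 128 CPM (-0.58, SE 0.158, adjusted p = 0.0195), where 5.98% of all genes were called. Thus the level of Smad7 in the whole cluster mixed parts at different levels and in different numbers, and a lower level was also measured within 2 of the 3 parts tested. The parts with few PRMT1FL cells were not tested. By plain CPM, Smad7 in the Mmp12 and Gpnmb part was at 148 and 184 in PRMT1FL and 162 and 142 in PRMT1Cx3cr1-KO libraries. In the Fosb and Treml4 part it was at 509 and 362 against 298 and 270 CPM. How much the makeup adds to the difference in the whole cluster was not tested. Smad3 was level in the Hspa1b and Siglech part (30.4 and 28.2 against 31.6 and 29.2 CPM) and lower in the Snhg20 part (39.5 and 44.1 against 22.6 and 11.7 CPM, -1.36, SE 0.343, adjusted p = 0.0106), there on 30 and 36 against 13 and 10 UMIs. In the Il1b and Tnf part its groups overlapped (25.0 and 34.1 against 26.6 and 19.8 CPM, -0.28, adjusted p = 0.603). Tgfb1 was lower in the Snhg20 part as well (402 and 478 against 332 and 291 CPM, -0.51, SE 0.133, adjusted p = 0.0142). It was not called in the Il1b and Tnf part (470.5 and 468 against 515 and 406 CPM, -0.02, adjusted p = 0.955) or in the Hspa1b and Siglech part (438 and 471 against 393 and 350.5 CPM, -0.27, adjusted p = 0.779).

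**Figure D4:**
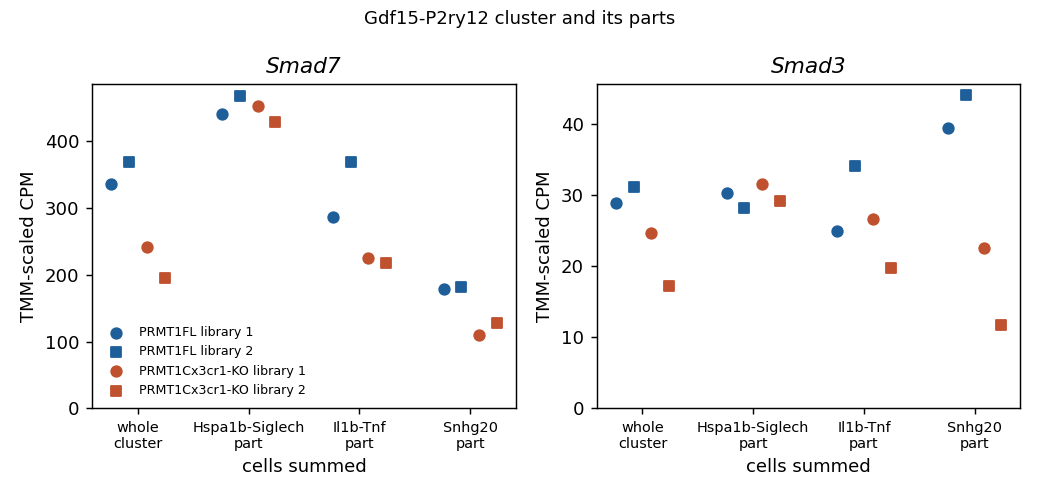
TMM-scaled CPM of Smad7 and Smad3 in each library (PRMT1FL blue, PRMT1Cx3cr1-KO orange, circles library 1, squares library 2) for the whole Gdf15-P2ry12 cluster and for 3 of its parts. The genotypes coincide in the Hspa1b-Siglech part and separate in the Snhg20 part, where Smad7 is at 178 and 181 CPM in PRMT1FL and 109 and 128 CPM in PRMT1Cx3cr1-KO libraries.

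Nrros had a negative fold change in all 7 states, from -0.35 in Gpnmb-Spp1 cells to -0.13 in interferon-responsive cells, and both PRMT1Cx3cr1-KO libraries were below both PRMT1FL libraries in 6 of them. In chemokine microglia-like cells it was at 120 and 116 CPM in PRMT1FL and at 89.6 and 97.7 CPM in PRMT1Cx3cr1-KO libraries (-0.34, SE 0.0728, adjusted p = 0.0499). This call was lost without PRMT1FL library 1 (adjusted p = 0.279) or library 2 (0.242), without marked doublets (0.0907), at a higher cluster resolution (0.0927) and with DESeq2 (0.0700). In Gpnmb-Spp1 cells, the most numerous, Nrros was at 91.3 and 93.6 against 68.6 and 75.8 CPM (SE 0.0742, adjusted p = 0.0698), and it passed there and in Hspa1a-Klf2 cells without PRMT1Cx3cr1-KO library 2 (adjusted p = 0.0377 and 0.0296). In interferon-responsive cells, with 104 to 216 cells a library, its sign turned without PRMT1Cx3cr1-KO library 1 (0.12).

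Tgfb1 likewise had a negative fold change in all 7 states, from -0.47 in chemokine microglia-like to -0.11 in interferon-responsive cells, and none was called. In chemokine microglia-like cells it was at 506 and 523 CPM in PRMT1FL and at 421 and 321 CPM in PRMT1Cx3cr1-KO libraries (SE 0.118, adjusted p = 0.0788). In Gpnmb-Spp1 cells the levels were 385 and 362 against 316 and 276 CPM (adjusted p = 0.111), and in haemoglobin-led cells 286 and 299 against 248 and 222 CPM (adjusted p = 0.0555). With 1 library left out at a time, the log2 fold change of Tgfb1 ranged from -0.68 to -0.29 in chemokine microglia-like cells. In proliferating-like cells it ranged from -0.32 to -0.12. In interferon-responsive cells its sign turned without PRMT1Cx3cr1-KO library 2 (0.05). With all 4 libraries, no difference between a state and the others was called for Tgfb1 or Nrros. The states take cells from the same 4 mice, so their agreement in sign is not 7 separate observations. Tgfbr1 also had a negative fold change in all 7 states, and Smad2 and Smad7 had one in 6. The share of all genes with such agreement was not counted.

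The rest of the pathway was read from 9 lists of 101 genes, of which 85 were tested in microglia. Some genes stand in more than one list. Only Cx3cr1 and Siglech were called, where 0.426% of all genes were, both lower, and both belong to the list of microglial genes that depend on TGF-beta. Cx3cr1, the fractalkine receptor, was at 1476 and 1579 CPM in PRMT1FL and at 839 and 797 CPM in PRMT1Cx3cr1-KO libraries (-0.90, SE 0.0775, adjusted p = 0.0229). The CreERT of the driver line sits in a Cx3cr1 allele, and its effect on this level cannot be told apart from that of PRMT1. Siglech, a lectin of microglia, was at 425 and 445 against 289 and 263 CPM (-0.65, SE 0.0768, adjusted p = 0.0401). Both calls were lost without PRMT1FL library 1 (adjusted p = 0.350 and 0.448) or library 2 (0.478 and 0.505). Of the 18 genes in this list, 10 lay lower in both PRMT1Cx3cr1-KO libraries (27.6% of all genes) and 3 higher (26% of all genes), with a median of -0.15. The receptor gene P2ry12 lay on the other side at 412 and 473 against 528 and 552 CPM (0.29, SE 0.0875, adjusted p = 0.162), and Tmem119 at 336 and 392 against 402 and 412 CPM (0.16, adjusted p = 0.371). These last genes were named after their values had been seen.

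Among 10 tested genes that TGF-beta restrains in microglia, none was called, 7 had an unadjusted p under 0.05 (19.9% of all genes), 7 lay lower in both PRMT1Cx3cr1-KO libraries (27.6%) and 1 higher (26%), with a median of -0.30. Lgals3, which encodes galectin-3, was at 209 and 204 against 157 and 160 CPM (-0.38, SE 0.0611, adjusted p = 0.0756), and Mrc1, a mannose receptor of border-associated macrophages, at 1.47 and 0.934 against 2.67 and 4.06 CPM (1.48, SE 0.289, adjusted p = 0.0888). With all cells included, border-associated macrophages among them, Mrc1 was at -0.02. The listed immediate targets of Smad signalling had the highest median, 0.31 over 14 genes, with none called. Of these, 6 had an unadjusted p under 0.05 (19.9% of all genes), 7 lay higher in both PRMT1Cx3cr1-KO libraries (26%) and 1 lower (27.6%). The list leaves out the members Smad7 and Skil, also targets, whose log2 fold changes in microglia were -0.25 and 0.08. Id1 was at 3.79 and 4.29 against 7.53 and 6.23 CPM (0.77, SE 0.132, adjusted p = 0.0790), and Tgfbi, a secreted matrix protein named for its induction by TGF-beta, at 28.3 and 22.5 against 37.5 and 49.6 CPM (0.78, SE 0.161, adjusted p = 0.0913).

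No gene was called in the other 6 lists, whose medians lay between -0.07 and 0.14. By their smallest p-values, Pmepa1, a Smad-induced inhibitor of Smad phosphorylation, was at 513 and 562 against 655 and 803 CPM (0.44, SE 0.113, adjusted p = 0.123), and Zfyve9, which brings Smad2 and Smad3 to the receptor, at 7.52 and 7.16 against 5.98 and 5.70 CPM (adjusted p = 0.134). Tab1, which encodes an activator of the TAK1 kinase, and Map3k7, which encodes TAK1 itself, were at 7.59 and 8.50 against 12.5 and 10.99 CPM (0.55, adjusted p = 0.0880) and at 15.3 and 14.9 against 18.4 and 18.7 CPM (0.30, adjusted p = 0.1003). Acvrl1, a type I receptor, was at 20.97 and 22.5 against 26.1 and 28.5 CPM (0.33, adjusted p = 0.0991), and its partner Eng at 17.4 and 19.5 against 17.1 and 13.8 CPM (adjusted p = 0.302). The integrin genes Itgav, at 35.3 and 37.3 against 40.3 and 45.4 CPM (adjusted p = 0.185), and Itgb1, at 151 and 140 against 154 and 171 CPM (adjusted p = 0.317), led the list of ligands and latency genes. The cofactors Ep300 (50.2 and 50.4 against 44.4 and 44.7 CPM, adjusted p = 0.186) and Zeb2 (363 and 357 against 341 and 309.6 CPM, adjusted p = 0.338) and the BMP Smads Smad1 (adjusted p = 0.665) and Smad5 (adjusted p = 0.604) were not called. Without PRMT1Cx3cr1-KO library 1, 34 of the listed genes were called, in a fit that called 19.2% of all genes, and among those named above as not called these were Lgals3, Mrc1, Id1, Tgfbi, Pmepa1, Zfyve9, Tab1, Map3k7, Acvrl1, Eng, Itgav and Itgb1, with adjusted p-values from 2.07e-05 (Tgfbi) to 0.0355 (Itgb1). Without PRMT1Cx3cr1-KO library 2, 17 were called, in a fit that called 6.92% of all genes, Lgals3, Mrc1, Id1, Tgfbi, Tab1 and Acvrl1 among those named (adjusted p from 3.46e-04 to 0.0495).

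**Figure D5:**
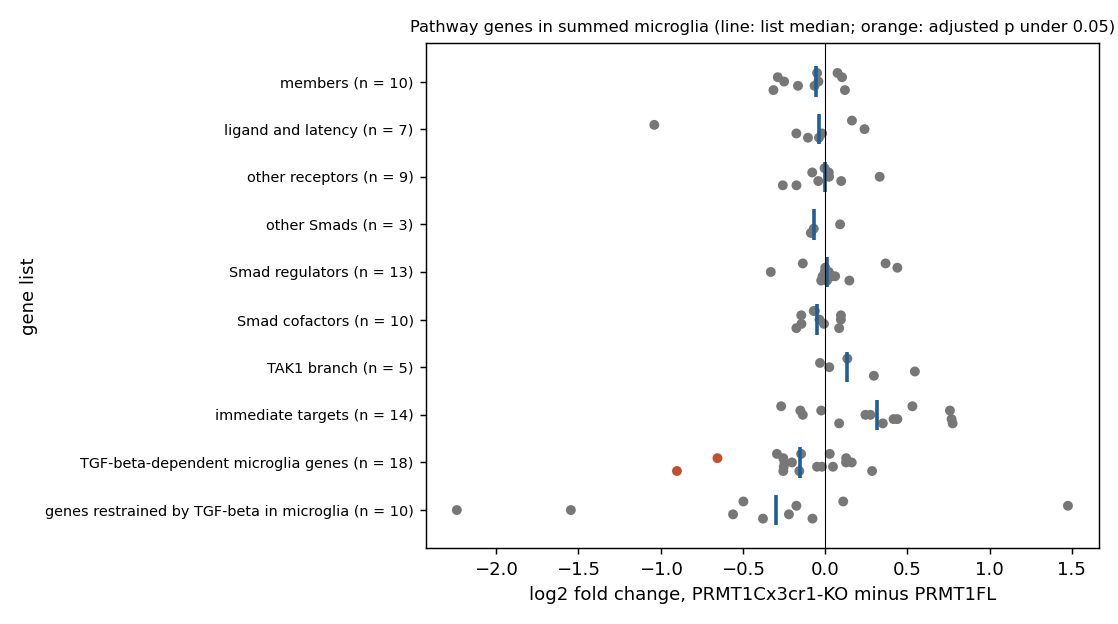
Log2 fold change (PRMT1Cx3cr1-KO minus PRMT1FL) in summed microglia of each tested gene of the 10 members and of 9 pathway lists, 1 point a gene, orange where the adjusted p is under 0.05 and with a blue line at the list median. The 2 orange points are Cx3cr1 and Siglech, and the immediate targets have the highest median at 0.31.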

How the data were processed

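Single brain cells of 4 mice, 2 for each genotype, were profiled with 3' droplet libraries. Cell Ranger 3.1.0 and the mm10 build were used by the authors, who deposited raw counts of UMIs per gene and cell barcode, without normalization. Seurat 3.2.0 and Scanpy 1.5.2 are also listed in the submitters' processing notes. As in the methods of the study, a cell was kept if it had from 200 to 6000 genes and a mitochondrial share of 10% or less, which left 8170 to 10902 cells in 3 libraries and 11427 in the other, more than the study describes as passing its quality control. The libraries held 91306165, 76943248, 85874289 and 99559644 UMIs, and the text says where counts were too few to compare.

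Clusters were formed from all 4 libraries with scanpy 1.11.5 (2000 variable genes, 20 components, 15 neighbours, Leiden resolution 0.4), without the members and the listed pathway genes. A further 1197 genes were left out, by an unadjusted edgeR p under 0.05 and at least a 2-fold genotype difference over all cells. A cluster of 1449 cells with a median of 872 UMIs was not counted as microglia. Doublets were marked with Scrublet, as the top-scoring share of each library (0.8% for each 1000 cells), kept in the main values and left out in an alternative. UMIs were summed over microglia, or over a state, in each library, because the mouse is the replicate. With 2 libraries a genotype an exact permutation test cannot go below p = 0.333, so edgeR 4.0.16 (TMM, filterByExpr, glmQLFit and glmQLFTest, Benjamini-Hochberg adjustment) in R 4.3.3 was fitted over all genes, and limma 3.58.1 (voom, duplicateCorrelation) tested differences between states. DESeq2 1.42.0 was an alternative, as were other scalings, filters, cell sets and cluster resolutions, a replicate block and leaving out each library. On simulated counts with 200 genes changed 2-fold, the edgeR script recovered 93% of them over 13689 genes in the microglial comparison, with 16 false calls. The voom script recovered 78.5% over 12122 genes in the state comparison, with 2 false calls. Changes under 2-fold, such as those of the members in microglia, were not simulated. The members and lists were chosen with earlier results of these data known. Named are all members, the called pathway genes, and from each list with no call the 2 genes with the smallest p. Reads of overlapping or antisense genes cannot be told apart here. Coordinates are from GENCODE vM21 (GRCm38, the build named mm10).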

Additional observations from a re-analysis of the deposited data

Results flagged for a closer look

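The genotype difference of Smad7 was not the same in the Gdf15-P2ry12 state as in the other microglial states, by a voom test of that difference over 7 states (-0.60 log2 units, SE 0.0997, adjusted p = 6.74e-04). The difference for Smad3 in the same state was -0.78 (SE 0.151, adjusted p = 0.00356). Neither call held in every fit with 1 library left out. Smad3 rested on 138 to 158 UMIs a library in this state, where its own edgeR test missed the threshold (adjusted p = 0.0502). Smad7 and Smad3 were among 6 of the 10 members that were lower in both PRMT1Cx3cr1-KO libraries of that state, and 2 were higher in both. The share of all genes with either order there was not counted. In that state edgeR called 19.4% of all genes, and the share called there by voom was not counted. The makeup of the state differed between genotypes, with 721 and 582 against 148 and 64 cells in its Hspa1b and Siglech part. The part of this makeup in the difference was not tested in the voom fit. In the Hspa1b and Siglech, the Il1b and Tnf and the Snhg20 part, Smad7 had a log2 fold change of -0.04, -0.55 and -0.58. That of Smad3 was 0.07, -0.28 and -1.36, the last on 13 and 10 UMIs in PRMT1Cx3cr1-KO libraries.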

How the results depend on the processing

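Counts of called genes depended on the fit, and the cause was not tested. In microglia 59 genes were called, 719 by DESeq2, 1694 with no low-count filter, which tests more genes, 231 with the replicate block, 95 without marked doublets, 749 over all cells and 2286 with the state as a term, a voom fit that takes several sums from each mouse. The members called went from 0 to 1 by DESeq2, 2 with no filter and 3 with the state as a term, and the listed pathway genes from 2 to 13, 22 and 29, with 5 over all cells. Without 1 library at a time the calls ranged from 4 to 2729 genes, 0 to 4 members and 0 to 34 pathway genes. Within states the 2 member calls became 4 by DESeq2, 7 with no filter, 8 with the replicate block and 1 to 10 without 1 library. How many of all genes these fits called within states was not counted, so the change in member calls is not read as particular to them. The members whose difference was not the same in a state as in the others went from 2 to 4 with the block, again without a count over all genes. Their number also changed with the library left out. Library numbers did not pair the mice (correlation of their deviations -0.0087 over 13843 genes), so the replicate block shares only a number.

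Of 606 alternatives of the named fold changes, 497 kept direction and side of the threshold, 86 newly passed, 15 no longer passed and 8 changed sign. Those were Tgfbr2 over all cells (0.0065), Mrc1 over all cells (-0.0233), Smad3 (0.0707) and Skil (0.1895) in the Hspa1b and Siglech part, and 4 that turned without 1 library. Without single libraries Skil ranged from -0.12 (without PRMT1Cx3cr1-KO library 1) to 0.2536, Smad1 from -0.2107 to 0.0373 (without PRMT1Cx3cr1-KO library 2), and in interferon-responsive cells Tgfb1 from -0.3339 to 0.0531 (without PRMT1Cx3cr1-KO library 2) and Nrros from -0.3549 to 0.12 (without PRMT1Cx3cr1-KO library 1). Smad3 rested on 1116 to 1571 UMIs a library.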

Other observations

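Outside microglia, the 217 border-associated macrophage-like cells had 279 and 188 CPM of Nrros in PRMT1FL and 189.7 and 104 CPM in PRMT1Cx3cr1-KO libraries, from 78 and 59 against 36 and 44 cells, too few to be tested. Smad7, by contrast, was at 40.8 and 111 CPM in PRMT1FL and 73.8 and 49.6 CPM in PRMT1Cx3cr1-KO cells of that cluster. A cluster of 238 cells with a median of 15002 UMIs carried border-associated macrophage, neutrophil and MHC class II genes beside microglia markers at 36068 CPM in sum, and was given no cell type. Nrros was there at 166 and 131 against 118 and 100.2 CPM. In the MHC class II and Ccr2 cluster, where 6 of 7 border-associated macrophage, 4 of 5 Ms4a7 phagocyte and 2 of 6 monocyte markers were over 2-fold, Smad7 was between 31.3 and 42.8 CPM in the 4 libraries and Tgfb1 between 179.5 and 241 CPM. The 1449 cells with a median of 872 UMIs that were left out of the microglia had 897 CPM of Tgfbr1 and 386 CPM of Smad7, against 299.5 and 179.9 CPM in microglia.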
